A study of Mus musculus with 12 samples.

Results

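Tumor and normal intestine were compared in mice that were wild type (+/+) for Dnmt, a DNA methyltransferase gene whose number the labels do not give. The members were the arrays labelled Dnmt+/+, which were 6 of the 12 arrays of the study: 3 tumors and 3 samples of normal intestine, 1 of each for diet #1, diet #2 and diet #3. Every probe set except the controls was used, 12422 of 12488 on the Affymetrix MG_U74Av2 array. All mice were APC(Min/+) males aged 91 days, so the normal intestine carried the same germline Apc allele as the tumors, and no array of a mouse without Min was used here. The labels give neither the composition of the diets nor the gut segment. They do not say whether an array holds 1 mouse or whether the tumor and the normal sample of a diet came from the same mouse, so the p-values reflect only how these arrays vary, and some of that may be technical. The remaining 6 arrays, 3 tumors and 3 normal samples with the same diet numbers, came from Min/+ mice labelled Dnmt+/- and served for comparison.

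The Min allele truncates Apc, a scaffold of the complex that marks beta-catenin for destruction. When the second allele is lost in an intestinal cell, beta-catenin accumulates, activates TCF and LEF factors on Wnt target genes, and an adenoma forms. The normal small intestine is renewed from crypts, where Wnt signalling keeps stem cells and Paneth cells, while villus enterocytes take up and process sugars, fats, bile acids and foreign compounds. Adenomas hold crypt-like and regenerating epithelium together with stroma and immune cells. An RNA level from such a tissue piece averages over all of them, and fewer cells of a type and less RNA per cell cannot be told apart.

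The arrays held intestine by their markers, and one of them held another tissue too. Vil1, the actin bundler of the brush border, read 8015 to 11443 in normalized intensity on all 6 arrays, and Fabp2, the fatty acid binding protein of enterocytes, read 10631 to 22368. The normal array of diet #2 carried pancreas transcripts: of 16 exocrine pancreas genes tested, 12 were at least 4-fold above both other normal arrays there, by 4.26-fold to 511-fold. The digestive elastase gene Cela1 read 30398 on it against 44.8 and 207 on the other normal arrays, and the chymotrypsinogen gene Ctrb1 read 41937 against 491 and 503. The insulin gene Ins2 of the endocrine pancreas read 3131 on it and lay at the floor of 44.8 on the other 5 arrays. Summed over the exocrine pancreas genes on the array, intensity was 333995 there and 38222 to 66356 on the other 5. The Dnmt+/- pair of diet #2 showed the same pattern. Its tumor over normal log2 difference was -4.53 for Cela1 and -5.86 for Ctrb1. In the Dnmt+/- pairs of diets #1 and #3, Cela1 differed by 3.96 and 1.30, and Ctrb1 by 0.24 and -0.32. The arrays of diet #1 were deposited unscaled, with 42.4% of probe sets in normal intestine and 40.9% in tumor at a value of 50. A value at that floor can stand for anything up to 121 in normalized intensity on the normal array of diet #1 and up to 113 on the tumor array. Those of diets #2 and #3 had a mean of 1000 and no such floor. Diet and format therefore cannot be told apart, and tumor was compared with normal within each diet.

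**Figure D1:**
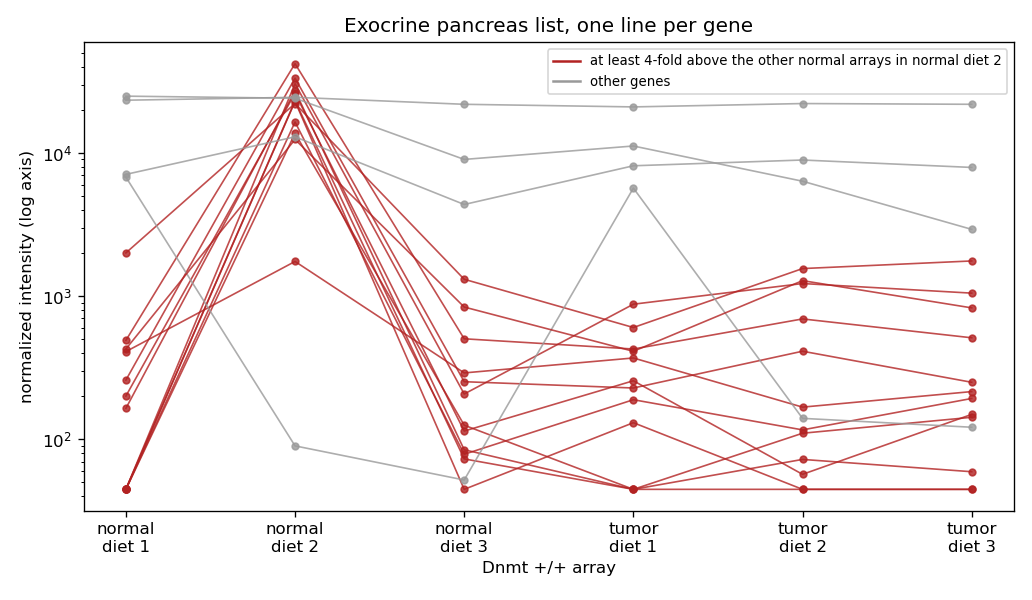
Normalized intensity (log axis) of the 16 exocrine pancreas genes on the 6 Dnmt+/+ arrays, 1 line per gene. The 12 red genes are at least 4-fold above both other normal arrays on the normal array of diet #2, and the other 4 (Zg16, Spink1, Reg1 and Dmbt1) are not.

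In tumor, mast cell protease, bile acid binding protein, laminin, keratin and annexin genes were far higher than in normal intestine, and genes of sugar handling, detoxification and gut hormones were lower. Of 7453 probe sets tested, 316 passed (4.24%; limma with diet as a term, Benjamini-Hochberg adjusted p under 0.05). In tumor 195 were higher (2.62%) and 121 lower (1.62%), together 260 named genes. With median scaling of the arrays 337 of 885 calls were higher in tumor, and on the values as deposited 422 of 579 were. Each of the 316 differed in the same direction in all 3 diets. A change of at least 2-fold in each of the 3 diets, with no test, was found upward for 175 probe sets (2.35%) and downward for 91 (1.22%). Diet #1 values at a floor entered these counts as 44.8, so some of the changes may be under 2-fold in diet #1. Cldn2, counted upward, had a log2 difference of 0.44 there with its normal value at the limit of 121. The 3 tumor arrays lay above the 3 normal arrays for 813 probe sets (10.9%) and below them for 730 (9.79%). These shares over all probe sets are the background for the counts of list members below. The number of calls rested on 3 pairs with 2 residual degrees of freedom: 0 probe sets passed without the diet #2 pair, where 1453 had an unadjusted p under 0.05, and 0 without the diet #3 pair, where 1240 did. All 316 kept their direction without each pair in turn, which follows from their shared direction in all 3 diets and is no further check.

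Promoters of genes at both ends of the comparison are shown here: Fabp6, Mcpt1 and Anxa1, among the largest increases, and G6pc, among the largest decreases. All 4 belong to the 7 of 17 windows with a TATAAA match, so they do not represent the other windows. The window of Slc2a5, the largest decrease, held no match to the motifs searched and is not shown. The sequences are from RefSeq, from 250 bases before to 50 bases after the annotated start, and capitals mark matches to TATAAA and, in G6pc, to CTTTGAT, on either strand.
Fabp6 (GRCm38.p6, chr11:43601513-43601812, minus strand): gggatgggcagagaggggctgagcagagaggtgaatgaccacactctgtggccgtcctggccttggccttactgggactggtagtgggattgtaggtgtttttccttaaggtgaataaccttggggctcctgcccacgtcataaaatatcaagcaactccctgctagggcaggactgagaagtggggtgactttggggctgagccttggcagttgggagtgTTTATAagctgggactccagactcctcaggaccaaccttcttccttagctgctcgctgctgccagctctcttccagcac
Mcpt1 (GRCm38.p6, chr14:56017714-56018013, plus strand): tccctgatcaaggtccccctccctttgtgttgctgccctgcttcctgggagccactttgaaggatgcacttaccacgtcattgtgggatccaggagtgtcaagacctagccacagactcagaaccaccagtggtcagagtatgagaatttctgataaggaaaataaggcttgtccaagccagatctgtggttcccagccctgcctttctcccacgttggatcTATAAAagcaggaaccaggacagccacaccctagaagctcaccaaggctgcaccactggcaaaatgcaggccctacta
Anxa1 (GRCm38.p6, chr19:20390622-20390921, minus strand): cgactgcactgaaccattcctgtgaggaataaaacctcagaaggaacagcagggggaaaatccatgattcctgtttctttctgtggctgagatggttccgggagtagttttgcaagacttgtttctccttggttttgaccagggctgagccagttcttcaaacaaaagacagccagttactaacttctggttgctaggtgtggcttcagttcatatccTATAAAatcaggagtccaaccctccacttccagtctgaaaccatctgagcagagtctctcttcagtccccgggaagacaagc
G6pc (GRCm38.p6, chr11:101367466-101367765, plus strand): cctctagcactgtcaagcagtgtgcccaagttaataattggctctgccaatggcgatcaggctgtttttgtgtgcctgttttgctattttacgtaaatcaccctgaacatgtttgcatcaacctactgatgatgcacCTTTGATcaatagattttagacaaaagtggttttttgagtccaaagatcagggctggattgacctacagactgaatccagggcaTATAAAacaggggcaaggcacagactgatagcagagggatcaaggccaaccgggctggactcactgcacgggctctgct
Each of the 4 holds a TATAAA, which in Fabp6 lies on the opposite strand, with its first base at -29 in Fabp6, -28 in Mcpt1, -32 in Anxa1 and -29 in G6pc, counted from the start site. The motif letters are those of the TATA box. Of the 12 largest increases and 12 largest decreases, 17 genes had a promoter window, and 7 windows held TATAAA on either strand: Fabp6, Wfdc18, Mcpt1, Anxa1, Ephx1, Slc4a5 and G6pc. The share was 8.68% over the 4561 tested genes with a window. CTTTGAT, the core of TCF and LEF sites, was found in 1 of the 17, G6pc, at -113, and in 2.59% of all tested windows. TGANTCA, the AP-1 motif, was found in 0 of the 17 and in 5.57% of all. Over all called genes with a window, TATAAA was found in 17.5% of the 120 windows of genes higher in tumor and 20.8% of the 77 of genes lower in tumor. For CTTTGAT these shares were 2.5% and 5.19%, and for TGANTCA 12.5% and 13%. These are letter matches in a short window and no evidence of binding.

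Mcpt2, a protease of mucosal mast cells, showed the largest increase of the named genes. It read 44.8, 96.5 and 97.1 in normal intestine and 11559, 5511 and 3233 in tumor, in the order of diets #1, #2 and #3, as for all values below. Every tumor lay above every normal array, by 78.9-fold on average (log2 difference 6.30 ± 0.60, moderated SE, n = 3 pairs, limma adjusted p = 0.027). The ± values here and below are limma's moderated standard errors, which borrow spread from all tested probe sets. The value of 44.8 is the floor set on the normalized intensities, so folds against arrays at it depend on that floor. With the diet #1 normal value at its limit of 121, the Mcpt2 fold was 56.6. Mcpt1, a related chymase, read 429, 266 and 51.4 in normal intestine and 15386, 6525 and 4051 in tumor (5.36 ± 0.36, limma adjusted p = 0.016). Its probe set carries the suffix _f, which marks probes that may match related genes, and the chymase genes are close relatives. A second Mcpt1 probe set, at 5.37, also passed. The carboxypeptidase gene Cpa3 was at the floor in all 3 normal arrays and read 680, 300 and 159 in tumor, at least 5.11-fold higher (limma adjusted p = 0.047). This bound and those below put a diet #1 value at the floor at its limit. A second Cpa3 probe set stood at 1.85 without passing. Of 7 mast cell genes tested, 3 rose and 0 fell, with a list median of 2.08 against -0.012 over all tested probe sets. The list median was 4.09 in diet #1, 1.33 in diet #2 and 1.31 in diet #3, and it was 0.94 without the diet #1 pair. The tryptase gene Tpsb2 differed by 2.08 ± 0.78, the connective tissue mast cell chymase gene Cma1 by 1.75 ± 0.80 and the receptor gene Kit by 0.97 ± 0.21, and none passed.

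Fabp6, the ileal bile acid binding protein, was almost as far apart. It read 44.8, 146 and 148 in normal intestine and 2847, 14757 and 8567 in tumor, which is 71.9-fold, or 51.6-fold with diet #1 at its limit (6.17 ± 0.21, limma adjusted p = 0.011). Of 3 ileum genes tested it was the 1 that passed. Cubn, a receptor for vitamin B12 bound to intrinsic factor, differed by 1.21, and Slc51a, a subunit of the bile acid exporter, by 0.092. Of 11 genes of the proximal small intestine 0 rose and 2 fell, with a median of -0.70. Those 2 were hormone genes of duodenal endocrine cells. Cck read 1456, 2212 and 1872 in normal intestine and 327, 504 and 441 in tumor (-2.13 ± 0.13, limma adjusted p = 0.016). Gip read 2426, 2526 and 3695 in normal intestine and 641, 1072 and 931 in tumor (-1.72 ± 0.21, limma adjusted p = 0.035). The folate transporter gene Slc46a1 differed by -1.998 ± 0.34 (limma adjusted p = 0.055), the lactase gene Lct by -0.70 ± 0.19 and the liver-type fatty acid binding protein gene Fabp1 by -0.43 ± 0.25. The array with pancreas transcripts belongs to the normal group, and without its diet the proximal list median was -0.68. The segment from which each sample came is not in the labels, and its part in these differences was not tested.

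Most genes of regenerating and fetal epithelium rose in tumor. Of 17 tested, 13 rose and 0 fell, with a median of 2.13, where 2.62% of all tested probe sets rose. In 16 of the 17 every tumor lay above every normal array, as for 10.9% of all probe sets. Anxa1, a calcium-dependent membrane binding protein, read 44.8, 173 and 391 in normal intestine and 3518, 2850 and 3794 in tumor (4.54 ± 0.62, limma adjusted p = 0.040). Its other probe sets differed by 4.59 and 3.15 and also passed. Anxa10, an annexin of gastric epithelium, was at the floor in all 3 normal arrays and read 945, 490 and 519 in tumor, at least 9.96-fold higher (limma adjusted p = 0.016). S100a6, a calcium-binding protein, read 1345, 1714 and 1126 in normal intestine and 18157, 21179 and 16290 in tumor. No normal array came near the tumors, and the difference was 3.75 ± 0.14 (limma adjusted p = 0.011). Clu, a secreted chaperone that marks regenerating crypt cells, read 698, 1255 and 226 in normal intestine and 8327, 4835 and 4935 in tumor (3.32 ± 0.51, limma adjusted p = 0.048). Its difference had 1 of the 5 widest ranges over diets, from 1.95 in diet #2 to 4.45 in diet #3. A second Clu probe set, at 4.27, did not pass (limma adjusted p = 0.074). Sprr1a, a cornified envelope protein, read 44.8, 85.4 and 191 in normal intestine and 704, 1178 and 1807 in tumor (3.67 ± 0.20, limma adjusted p = 0.016). Ereg, an EGF receptor ligand, stood at 2.10 ± 0.34, short of the threshold (limma adjusted p = 0.052).

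Anchoring proteins of the epithelium were among the same large increases. Lamb3 and Krt7 are also members of the list of regenerating and fetal epithelium, so the counts share genes. Lamb3 and Lama3 encode chains of laminin-332, which ties epithelium to the basement membrane. Lamb3 read 44.8, 132 and 82.4 in normal intestine and 1227, 1566 and 2019 in tumor (4.32 ± 0.29, limma adjusted p = 0.016). By a second probe set Lamb3 stood at 2.20, which did not pass. Lama3 read 44.8, 60.3 and 220 in normal intestine and 1259, 1074 and 1320 in tumor (3.85 ± 0.46, limma adjusted p = 0.034). Krt7, a keratin of simple ductal epithelia, read 148, 431 and 494 in normal intestine and 4153, 6754 and 6754 in tumor (4.18 ± 0.25, limma adjusted p = 0.016). Of 24 keratin, laminin and integrin genes 7 rose and 0 fell, the others being Krt18 (2.55), Itgb4 (1.21), Krt19 (1.11) and Lama5 (1.03). Krt20, the keratin of differentiated villus cells, differed by 0.094. Among 16 junction genes 3 rose: Cldn2, the claudin of leaky crypt epithelium, by at least 3.87-fold from the floor, Cldn4 by 2.13 ± 0.17 and the desmosomal cadherin gene Dsg2 by 1.10 ± 0.13 (0.84 by a second probe set, which did not pass). The E-cadherin gene Cdh1 differed by 0.039 ± 0.13.

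**Figure D2:**
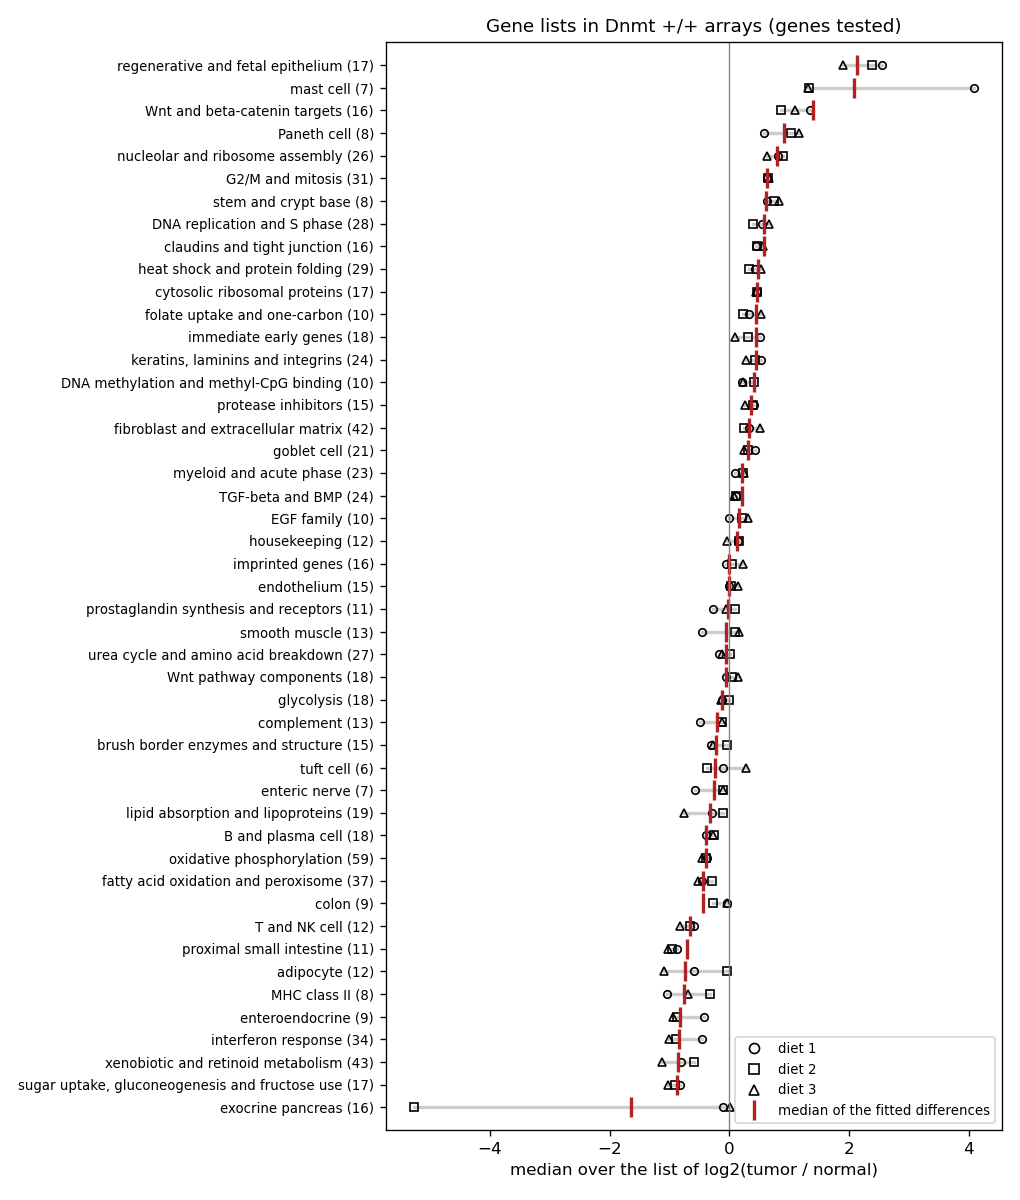
Median log2 tumor over normal difference of each gene list with at least 6 genes tested (number in parentheses), shown for each diet by symbol and for the fit by a red bar. Regenerative epithelium has the highest red bar, at 2.13, with 1.89 to 2.55 in the 3 diets, the mast cell list reaches 4.09 in diet #1, and the exocrine pancreas list is spread from -5.28 in diet #2 to 0.012 in diet #3.

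Several Wnt targets rose in tumor, and no pathway component was called. Of 16 targets 6 rose and 0 fell, with a median of 1.40, where 2.62% of all tested probe sets rose. Pla2g2a, a secretory phospholipase of Paneth cells that modifies tumor number in Min mice, read 256, 190 and 192 in normal intestine and 4259, 3651 and 4564 in tumor. The 3 tumors agreed closely, and the difference was 4.30 ± 0.17 (limma adjusted p = 0.011). Plaur, the urokinase receptor gene, differed by 2.54 ± 0.29 with 2 of 3 normal arrays at the floor. Mmp7, the matrix protease that activates Paneth cell defensins, read 1400, 1172 and 1561 in normal intestine and 4246, 6916 and 10497 in tumor (2.30 ± 0.27, limma adjusted p = 0.034). Gpx2, the gastrointestinal glutathione peroxidase, rose by 2.25 ± 0.16, Myc by 1.49 ± 0.23 and the cyclin D1 gene Ccnd1 by 1.32 ± 0.18. For Myc the normal array of diet #1 was at the floor, and with that value at its limit the difference was 1.01. Axin2, the feedback inhibitor most often used as a Wnt readout, read 44.8, 136 and 84.3 in normal intestine and 184, 226 and 139 in tumor. The groups did not overlap, but the difference of 1.16 ± 0.32 did not pass (limma adjusted p = 0.11). None of 18 pathway components passed (0 higher and 0 lower), with 4 of them named here after their values were seen. Ctnnb1, which encodes beta-catenin, differed by 0.58 ± 0.17, the receptor gene Lrp5 by 1.10 ± 0.31 and Tcf7l2 by -0.44. Apc itself read 134, 256 and 120 in normal intestine and 44.8, 207 and 109 in tumor, a difference of -0.67 ± 0.33 (limma adjusted p = 0.26). All samples carry the Min allele, and the array does not tell the mutant from the wild type transcript.

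The replication, mitosis, nucleolar and ribosomal protein lists had medians above 0. Of 28 replication genes 0 passed, with a median of 0.58. In 10 the tumors lay above all normal arrays, as for 10.9% of all tested probe sets. Rrm1, a ribonucleotide reductase subunit, differed most, by 1.84 ± 0.40 (limma adjusted p = 0.082). Of 31 mitosis genes 2 rose and 0 fell, with a median of 0.63 and 14 without overlap. They were Cks1b, a partner of cyclin-dependent kinases (1.33 ± 0.14), and Prc1, which bundles spindle microtubules (0.97 ± 0.15). Mki67 differed by 0.53 and Pcna by 0.53, and neither passed. In the nucleolar list 7 of 26 genes rose, 0 fell, and 15 showed no overlap, with a median of 0.79. Rrs1, Nhp2 and Nop56, which serve the assembly of ribosomes and small nucleolar RNPs, differed by 1.40 ± 0.15, 1.35 ± 0.15 and 1.32 ± 0.15 (limma adjusted p = 0.032, 0.033 and 0.033). The nucleolin gene Ncl (1.14) and the fibrillarin gene Fbl (0.87) rose with them. The 17 ribosomal protein genes had a median of 0.47 in the fit and 0.44 to 0.47 in the diets, and 0 passed. That median was 0.14 with median scaling of the arrays. Of 29 chaperone genes 1 rose, the inducible heat shock gene Hspa1b (1.19 ± 0.17), where 2.62% of all tested probe sets rose. Among 18 immediate early genes Myc and Ier3 (1.46 ± 0.16) rose and Zfp36, which destabilises inflammatory mRNAs, fell (-0.86 ± 0.13).

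Passing members of the Paneth, goblet, tuft and stem cell lists rose, and those of the enteroendocrine list fell. Among Paneth cell genes 2 of 8 rose, Pla2g2a and Mmp7, both also Wnt targets. The pentraxin gene Mptx1 differed by 2.40 ± 0.48 and the lysozyme gene Lyz2 by 0.84 ± 0.28, and neither passed. In the goblet list 6 of 21 rose and 0 fell, with a median of 0.30. Retnlb, a goblet cell lectin-like peptide, was at the floor in all 3 normal arrays and read 861, 330 and 381 in tumor, at least 7.63-fold higher (limma adjusted p = 0.027). The transcription factor genes Foxa1 and Spdef, which act in secretory cell fate, differed by 2.94 ± 0.45 and 1.92 ± 0.23 (limma adjusted p = 0.048 and 0.034). For both, the normal array of diet #1 was at the floor, and with that value at its limit the differences were 2.46 and 1.44. Spink4 (1.68), the disulphide isomerase gene Agr2 (1.39) and the chemokine gene Ccl9 (1.23), which other cells also make, were the remaining 3. The trefoil peptide gene Tff3, near the top of the intensity range on every array, differed by 0.12 ± 0.15, and Zg16 by -0.10 ± 0.14. Of 9 enteroendocrine genes 0 rose and 2 fell, Cck and Gip, and the somatostatin gene Sst differed by -1.60 ± 0.42. Among 6 tuft cell genes Avil (2.71 ± 0.37) and Cd24a (1.31 ± 0.14), a surface protein also present elsewhere in crypts, rose, while the tuft cell factor gene Pou2f3 differed by -0.50. For Avil the normal array of diet #1 was at the floor, and with that value at its limit the difference was 2.23. The tuft list median was -0.24, with -0.10, -0.37 and 0.27 in the 3 diets, so the list as a whole did not rise. In the stem and crypt base list 2 of 8 rose, Prom1 (2.22 ± 0.19; 2.11 by a second probe set) and Igfbp4 (2.26 ± 0.19; 0.28 by a second probe set, which did not pass).

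Many genes of enterocyte metabolism fell in tumor, among them those that handle glucose and fructose. Of 17 genes of sugar uptake, gluconeogenesis and fructose use 0 rose and 7 fell, with a median of -0.87. Slc2a5, the fructose transporter of the brush border, read 6339, 2694 and 3692 in normal intestine and 1350, 512 and 310 in tumor (-2.73 ± 0.31, limma adjusted p = 0.033). Fbp1, fructose-1,6-bisphosphatase, read 8796, 7506 and 12939 in normal intestine and 2118, 1756 and 1561 in tumor (-2.40 ± 0.25, limma adjusted p = 0.032). G6pc, the catalytic subunit of glucose-6-phosphatase, read 3019, 2889 and 5743 in normal intestine and 598, 855 and 1123 in tumor. Its partner in the endoplasmic reticulum, the glucose-6-phosphate transporter gene Slc37a4, read 3404, 3512 and 5091 in normal intestine and 866, 828 and 1000 in tumor. The pair fell by 2.15 ± 0.19 and 2.14 ± 0.15 on the log2 scale (limma adjusted p = 0.023 and 0.017). The basolateral glucose transporter gene Slc2a2 (-1.98 ± 0.26), Gpd1 (-1.80 ± 0.21) and the pyruvate kinase gene Pklr (-1.17 ± 0.14) were the other 3. Slc2a1, the glucose transporter of proliferating cells, went the opposite way by 1.96 ± 0.50 without passing (limma adjusted p = 0.10). Among 18 glycolysis genes 1 passed, the hexokinase gene Hk2, which read 151, 250 and 246 in normal intestine and 959, 1378 and 733 in tumor (2.24 ± 0.26, limma adjusted p = 0.033).

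Detoxification gave the most decreases of any list by number. Of 43 genes of xenobiotic and retinoid metabolism 0 rose and 12 fell, with a median of -0.86, where 1.62% of all tested probe sets fell. In 20 all tumors lay below all normal arrays, as for 9.79% of all probe sets. Ephx1, microsomal epoxide hydrolase, read 407, 176 and 392 in normal intestine and 44.8, 56.4 and 49.9 in tumor (-2.60 ± 0.35, limma adjusted p = 0.040). Adh4, an alcohol dehydrogenase that also oxidises retinol, read 269, 356 and 638 in normal intestine and 44.8, 103 and 85.0 in tumor (-2.43 ± 0.26, limma adjusted p = 0.032). A second Adh4 probe set, at -2.08, did not pass. The glutathione transferase genes Gsta4 and Gstt1 fell by 2.27 ± 0.22 and 2.16 ± 0.17 on the log2 scale (limma adjusted p = 0.027 and 0.020). Gstm6 (-2.09), the soluble epoxide hydrolase gene Ephx2 (-1.94), the cytochrome P450 gene Cyp2c29 (-1.87) and Adh1 (-1.77) followed. Cyp3a11, the main drug-oxidising P450 of the upper intestine, stood at -2.12 ± 0.42, short of the threshold (limma adjusted p = 0.072). In the opposite direction, the aldo-keto reductase gene Akr1b8 stood at 2.68 ± 0.52, also short of it (limma adjusted p = 0.070).

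Few genes of oxidative phosphorylation passed. Of 59 tested 2 fell and 0 rose, where 1.62% of all tested probe sets fell. In 32 every tumor lay below every normal array, as for 9.79% of all probe sets, and the median was -0.40, with -0.38, -0.39 and -0.46 in the 3 diets. The 2 were Cox7a1, a cytochrome oxidase subunit (-1.72 ± 0.18), and Sdha, the flavoprotein of succinate dehydrogenase (-0.94 ± 0.15). In fatty acid oxidation 4 of 37 fell and 0 rose. The peroxisomal enzyme gene Ehhadh read 603, 540 and 804 in normal intestine and 207, 171 and 179 in tumor (-1.79 ± 0.18, limma adjusted p = 0.032). Ppargc1a, the coactivator of mitochondrial biogenesis, differed by -1.82 ± 0.22, with the tumor of diet #1 at the floor, and the carnitine acetyltransferase gene Crat by -1.03 ± 0.13 (-1.39 by a second probe set, which did not pass). Scarb1, the lipoprotein receptor that takes up cholesterol esters, read 5110, 2820 and 4401 in normal intestine and 1353, 588 and 785 in tumor (-2.22 ± 0.17, limma adjusted p = 0.020). The fatty acid transporter gene Slc27a2 fell with it (-1.80 ± 0.24), and Fabp6 was the 1 of 19 lipid absorption genes that rose. Of 27 genes of amino acid breakdown 2 fell, the D-amino acid oxidase gene Dao (-2.30 ± 0.16, limma adjusted p = 0.017) and the mitochondrial arginase gene Arg2 (-1.16 ± 0.14). None of 15 brush border genes passed (0 up, 0 down). The largest difference among them was in Slc34a2, a phosphate transporter, at 3.05 ± 0.78 (limma adjusted p = 0.10), which read 44.8, 70.7 and 1266 in normal intestine and 344, 2415 and 2760 in tumor, with overlap between the groups.

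Immune genes moved in both directions. Ccl5, a chemokine of intraepithelial T and NK cells, read 1104, 1204 and 1189 in normal intestine and 307, 212 and 414 in tumor (-1.96 ± 0.23, limma adjusted p = 0.034). It was the 1 of 12 T and NK cell genes that fell, and 0 rose, with a median of -0.67. In the interferon list 1 of 34 rose and 5 fell, with a median of -0.84, where 2.62% of all tested probe sets rose and 1.62% fell. Its members with every tumor below every normal array were 20, against 9.79% of all probe sets. Psmb9, an immunoproteasome subunit, read 2099, 1974 and 2025 in normal intestine and 815, 621 and 670 in tumor (-1.54 ± 0.15, limma adjusted p = 0.027). The other 4 that fell were Ifi35 (-1.41), Samhd1 (-1.37), Gbp3 (-1.16) and the second immunoproteasome gene Psmb8 (-1.14). Ifitm3, a membrane protein that blocks virus entry, rose by 1.54 ± 0.19. Of 8 MHC class II genes 1 fell, H2-DMb1 (-0.90 ± 0.14), and of 18 B and plasma cell genes 0 passed, with a median of -0.39. Summed intensity of the T and NK list was 5566 to 7433 in normal intestine and 3240 to 4450 in tumor, with no overlap, and its part in the interferon and MHC values was not tested.

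Among inflammatory products, the acute phase gene Saa3 read 44.8, 44.8 and 50.1 in normal intestine and 625, 523 and 349 in tumor (3.38 ± 0.24, limma adjusted p = 0.017). Il1rn, the interleukin-1 receptor antagonist, read 44.8, 182 and 126 in normal intestine and 829, 875 and 989 in tumor (3.15 ± 0.40, limma adjusted p = 0.037). Together with Ccl9 they made 3 of 23 myeloid and acute phase genes that rose, and 0 fell. The monocyte receptor gene Csf1r differed by -0.74. Cfi, the serine protease that inactivates complement C3b, read 44.8, 90.9 and 55.2 in normal intestine and 1733, 1989 and 3104 in tumor, which is 36.3-fold, or 26.0-fold with diet #1 at its limit (5.18 ± 0.30, limma adjusted p = 0.016). It was the 1 of 13 complement genes that passed. Wfdc18, a secreted protein of the whey acidic protein family, read 165, 133 and 44.8 in normal intestine and 5697, 4564 and 4347 in tumor (5.61 ± 0.36, limma adjusted p = 0.016). Within the Reg lectins, Reg3g rose by 2.52 ± 0.38 and Reg1 fell by 1.57 ± 0.20 on the log2 scale. By a second probe set each, Reg3g stood at 2.36 and Reg1 at -0.53, and neither passed. Reg1 is also made by the pancreas. It read 24884, 24065 and 8999 in normal intestine and 11167, 6339 and 2924 in tumor, with overlap between the groups. In the Dnmt+/- pairs it differed by 0.42, -5.38 and -3.55. The part of pancreas tissue in these values was not tested.

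In the stromal lists most genes did not pass. Of 42 fibroblast and matrix genes 4 rose and 0 fell, with a median of 0.33. Plat, tissue plasminogen activator, led with 3.05 ± 0.43 and reads of 617, 193 and 226 in normal intestine against 2230, 2142 and 3213 in tumor. The collagen genes Col1a1 (1.49 ± 0.23; 0.91 by a second probe set, which did not pass) and Col5a2 (1.35 ± 0.14) and the tenascin gene Tnc (1.21) were the other 3. In the endothelial list Sox17 (3.09 ± 0.46) and the VE-cadherin gene Cdh5 (1.57 ± 0.18) rose, 2 of 15, while Pecam1 differed by -0.24. For Sox17 the normal array of diet #1 was at the floor, and with that value at its limit the difference was 2.61. Sox17 is also a factor of fetal endoderm. None of 13 smooth muscle genes and none of 7 enteric nerve genes passed (0 up and 0 down in both). Of 12 adipocyte genes 1 fell, Gpd1, which enterocytes express too, and the adipokine gene Adipoq differed by -1.12 ± 0.62.

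Of the growth factor lists, prostaglandin genes gave 3 calls, TGF-beta genes 1 and EGF genes 0. Over all tested probe sets 4.24% were called. Ptger4, the prostaglandin E2 receptor EP4, rose by 1.86 ± 0.22 and Ptgr1, which inactivates prostaglandins and leukotriene B4, by 1.06 ± 0.14, which with Pla2g2a made 3 of 11 prostaglandin genes. Tgif1, a corepressor of TGF-beta signalling, rose by 1.51 ± 0.13 (limma adjusted p = 0.025), the 1 of 24 in its list, and in the EGF list 0 of 10 passed. Slc38a4, an amino acid transporter, read 136, 62.3 and 44.8 in normal intestine and 1680, 799 and 1124 in tumor (3.98 ± 0.26, limma adjusted p = 0.016). Ctse, an aspartic protease of gastric and antigen-presenting cells, differed by 4.10 ± 0.61 (limma adjusted p = 0.047), but 2 further probe sets for it differed by 0.49 and 0.31 and did not pass. Serpinb5 rose by 2.43 ± 0.28 with 2 normal arrays at the floor. Slc4a5, a bicarbonate transporter, fell by 2.17 ± 0.18 on the log2 scale, with the tumor of diet #1 at the floor.

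The DNA methylation genes bear on the genotype the mice were typed for. Dnmt1, the maintenance methyltransferase, read 44.8, 667 and 579 in normal intestine and 478, 1069 and 1214 in tumor. The tumor of each diet was higher, but the tumor of diet #1 lay below 2 normal arrays, and the difference of 1.72 ± 0.59 did not pass (limma adjusted p = 0.15). Its partner gene Uhrf1 differed by 0.92 ± 0.26. None of 10 methylation genes, 10 folate genes or 16 imprinted genes passed, with medians of 0.40, 0.44 and -0.00059.

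The tissue difference was compared between the genotypes by a test of the interaction. No probe set passed (0 of 7453, 0%; limma, smallest adjusted p = 0.9996), and 215 had an unadjusted p under 0.05 (2.88%). The median standard error of the interaction was 0.29 on the log2 scale, against 0.17 for the tissue difference in Dnmt+/+. In the same fit on the Dnmt+/- arrays 153 probe sets passed (2.05%), and 119 passed in both genotypes with the same sign, which is 37.7% of the Dnmt+/+ calls and 77.8% of the Dnmt+/- calls. All 316 Dnmt+/+ calls had the same sign of the mean difference in Dnmt+/-, and 294 (93%) had it in all 3 Dnmt+/- pairs. Over all 7453 tested probe sets, 2506 had the same sign in all 6 pairs. The count of 294 did not leave out pairs at a floor. In the Dnmt+/- pair of diet #1, the decreases Ephx1, Adh4 and Ppargc1a and the increases Myc, Spdef and Cldn2 all stood at -0.047. Such a shared value is no measured direction, yet it counted as agreement for decreases and as disagreement for increases. Of the 195 increases 76 were larger in Dnmt+/-, and of the 121 decreases 77 were. The 316 were chosen by their Dnmt+/+ values, which tends to enlarge their differences there, so these counts do not compare the genotypes evenly. Over all tested probe sets the differences correlated between genotypes with r = 0.81 and rho = 0.72. This is a description over probe sets that share 3 diets and their array formats. The diet #2 pairs of both genotypes also had pancreas transcripts higher in normal intestine than in tumor, as for Cela1 and Ctrb1.

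**Figure D3:**
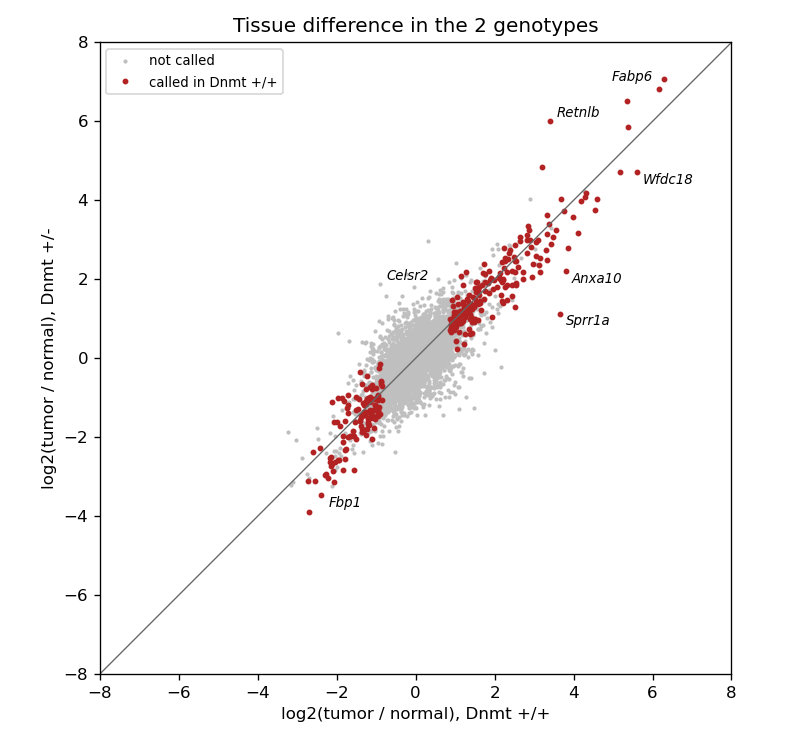
Log2 tumor over normal difference of the 7453 probe sets in Dnmt+/+ (x axis) and Dnmt+/- (y axis), with the 316 called in Dnmt+/+ in red and the line of equality. The red points lie on the same side of 0 in both genotypes, with Retnlb at 3.41 and 6.01. Celsr2, not called and on opposite sides of 0, lies at -0.89 and 1.89.

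The named gene with the smallest interaction p was Retnlb, at the floor in all 3 normal Dnmt+/+ arrays, with a tumor difference of 3.41 in Dnmt+/+ and 6.01 in Dnmt+/- (difference between genotypes -2.60 ± 0.45, unadjusted p = 0.00033, limma adjusted p = 0.9996). Every Dnmt+/- pair, at 5.58 to 6.49, exceeded every Dnmt+/+ pair, at 2.88 to 4.27, with values at the floor taken as 44.8. Mx2, an interferon-induced GTPase, differed by 0.029 in Dnmt+/+ and -0.96 in Dnmt+/-. Serf2 differed by -0.31 and -0.96, and its 2 further probe sets by -0.47 and -0.58 in Dnmt+/+. Ipo4, an importin, differed by 0.68 and 1.78, and its 2 further probe sets by 1.44 and -0.053 in Dnmt+/+. None of these interactions passed after adjustment. Among the largest increases, Mcpt2 differed by 6.30 and 7.07, Fabp6 by 6.17 and 6.82 and Wfdc18 by 5.61 and 4.71 in Dnmt+/+ and Dnmt+/-. Dnmt1 differed by 1.72 and 0.38. Its pairs stood at 3.42, 0.68 and 1.07 in Dnmt+/+ and at -0.047, 0.54 and 0.66 in Dnmt+/-. The normal Dnmt+/+ array of diet #1 was at the floor, and the -0.047 is the same value that Ephx1, Adh4 and Myc took in that Dnmt+/- pair. The gap between the means therefore rests on diet #1 values at or near a floor.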

How the data were processed

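RNA from 6 Dnmt+/+ samples, and 6 Dnmt+/- samples for comparison, was hybridised to Affymetrix MG_U74Av2 arrays of 1 colour. Each probe set has 1 deposited intensity on a linear scale. Which software summarised the probes was not given in the sources used here. Intensities of all 12 arrays were quantile normalized without 66 control probe sets, raised to their 20th percentile (44.8), and taken to log2. The lowest 40% by mean over the 6 arrays were left out, leaving 7453 probe sets and 5656 genes. Tumor was compared with normal in limma 3.58.1 (R 4.3.3) with diet, which is the replicate number, as a block. The pairing comes from the labels' diet numbers: deviations from the tissue means correlated at 0.76, 0.50 and 0.63 within diets. The interaction used all 12 arrays. The number of arrays limits the precision. Fits were checked on data simulated with independent normal noise. Those data had no floor, no difference in array format and no array with pancreas transcripts, so the check does not cover these.

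By the platform annotation 10833 probe sets have 1 gene symbol, 396 have several and 1193 have none. Names were matched to RefSeq (GRCm38.p6) by Entrez ID for 10817. The 52 gene lists held 1618 entries, of which 1243 matched; a gene was represented by its brightest probe set past the filter. The arrays, lists and genes were chosen with earlier results of these data known. Lists can share genes, and they are described by counts and medians, not tested.

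Named were the 12 largest increases and 12 largest decreases past the threshold, per list up to 3 passing members of largest difference, the 5 called genes of widest range over diets (Mcpt1, Anxa1, Mcpt2, Ctse and Clu), the 5 of smallest interaction p, Dnmt1 and the pancreas genes. Other list members were chosen after their values were seen. Of 20 further probe sets of the 99 named genes, 16 did not pass, 1 of them with the opposite sign.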

Additional observations from a re-analysis of the deposited data

Results flagged for a closer look

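Celsr2, a cadherin of planar cell polarity, went in opposite directions in the genotypes. Its tumor over normal difference was -1.45, -0.72 and -0.52 (log2) in the diet #1, #2 and #3 pairs of Dnmt+/+ mice and 3.19, 0.24 and 2.24 in those of Dnmt+/- mice. The difference between the genotypes was -2.78 ± 0.66 (unadjusted p = 0.0027) and did not pass in limma (adjusted p = 0.9996). In all, 78 of 7453 probe sets (1.05%) had opposite signs in all pairs of the genotypes.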

How the results depend on the processing

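The direction of all 316 calls was kept in every alternative in which they were tested, while their number varied widely. Only the alternatives of scaling and floor could have changed a direction. Those of filter, block, prior and shared spread use the same differences. Leaving out a pair cannot reverse calls that agree in all 3 diets. It was 885 with median scaling, 579 on values as deposited, 678 with the floor at the 40th percentile, 641 with 50 added and no floor, 907 with the lowest 60% left out, and 1054 with a trended robust prior. Without a filter 0 passed in limma (2098 at an unadjusted p under 0.05). With no replicate block 88 passed, all among the 316. With the spread shared over all 12 arrays 1048 passed, including 295 of the 316. Leaving out 1 diet pair gave 0 to 358 calls, 0 without diet #2 or without diet #3. With the shared spread, an alternative chosen after seeing the data, leaving out diets #1, #2 and #3 in turn gave 562, 83 and 39. The balance of directions varied too. Increases were 61.7% of the calls, 38.1% with median scaling, where the median probe set shifted by -0.11, and 72.9% as deposited, where it shifted by 0.13. They were 50.7% with the lowest 60% left out, 52.8% with the trended robust prior, 75% with no block, and 78.3% and 82.1% with the shared spread without diets #2 and #3. List medians within about that distance of 0, as for Wnt components, smooth muscle, endothelium, imprinted and housekeeping genes, changed sign with the scaling. The interaction gave 0 calls in every alternative run. A probe set at the floor gives only a bound: 8 called increases had all 3 normal arrays at a floor, 47 had 1 or 2, and 9 called decreases had a tumor array there.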
